A study of Mus musculus with 16 samples.

Results

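Liver tissue beside tumors was compared between 4 mice given a traditional Chinese medicine decoction (TCM) and 4 control mice. These 8 peri-tumor libraries are part of the 16 RNA sequencing libraries of the study. The other 8 libraries came from tumors of the same mice. All mice carried the HrasG12V genotype, an oncogenic form of the GTPase gene Hras, and all libraries are labelled 3 months. The labels do not say whether that is an age or a length of treatment. The protocol text names both Ras-transgenic mice and mice given DEN (diethylnitrosamine, a liver carcinogen) and does not state whether these 8 mice received DEN. No source used here gives the promoter of the transgene, the strain, the sex of the mice, the make-up and dose of the decoction, what the control mice were fed or the hour of collection. The members were the 4 control and 4 TCM peri-tumor libraries as labelled, and the comparison ran over all genes.

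Hepatocytes make most plasma proteins, and under interleukin-6 and related cytokines they raise the acute phase proteins, such as serum amyloid A and haptoglobin, through STAT3 and C/EBP factors. The same cells clear drugs and plant compounds with cytochromes P450 and conjugating enzymes, many of them induced by the nuclear receptors PXR and CAR, and burn fatty acids under PPARalpha. A part of the hepatocyte transcriptome differs between male and female mice, set by the pattern of growth hormone release. Kupffer cells are the resident macrophages of the liver. Whole tissue pieces were sequenced, so a lower transcript level from fewer cells of a type and one from less RNA per cell cannot be told apart.

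Of 14865 genes tested with edgeR's quasi-likelihood test, 2091 (14.1%) had a Benjamini-Hochberg adjusted p under 0.05 and are called changed here. Levels were higher in TCM for 998 genes (6.71%) and lower for 1093 (7.35%). Among those that changed by at least 2-fold, 201 rose and 509 fell. The 4 TCM values lay wholly above or below the 4 control values for 2673 of the tested genes (18%), and 1654 of these were called. The median log2 fold change over all genes was -0.0042, and changes of single genes are read against this middle. The scaling of the libraries (TMM factors) itself places the middle near 0, so a shift shared by most genes could not be seen. The p-values of this fit rest on the spread within groups over all 16 libraries, tumors included, and not on the peri-tumor libraries alone. The peri-tumor and tumor libraries of a mouse were treated as independent in it. A fit of the 8 peri-tumor libraries alone called 1405 genes, of which 1280 were among the 2091.

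Control mouse 4 stood apart from the other control mice. On the first principal component of the 8 libraries, which held 41.7% of the variance, control mice 1 to 3 lay between -56.61 and -38.97 and the TCM mice between 28.46 and 44.11, while control mouse 4 lay at 3.508. On the second component, with 15% of the variance, it lay at -57.4 and the other 7 libraries between -7.971 and 20.88. Without this library 3228 of 15142 genes were called (21.3%), 1648 higher (10.9%) and 1580 lower (10.4%). Leaving out control mouse 1, 2 or 3 gave 1300, 1101 or 1269 calls, and leaving out TCM mouse 1 or 3 gave 1217 or 1226. Totals per library ran from 15140388 to 16194224 counts. The mitochondrial share of counts was 4.49% to 5.223% in control and 4.863% to 7.458% in TCM libraries, and the share of cytosolic ribosomal protein genes was 0.6305% to 0.8864% and 0.5609% to 0.7121%; their part in the results was not tested.

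**Figure D1:**
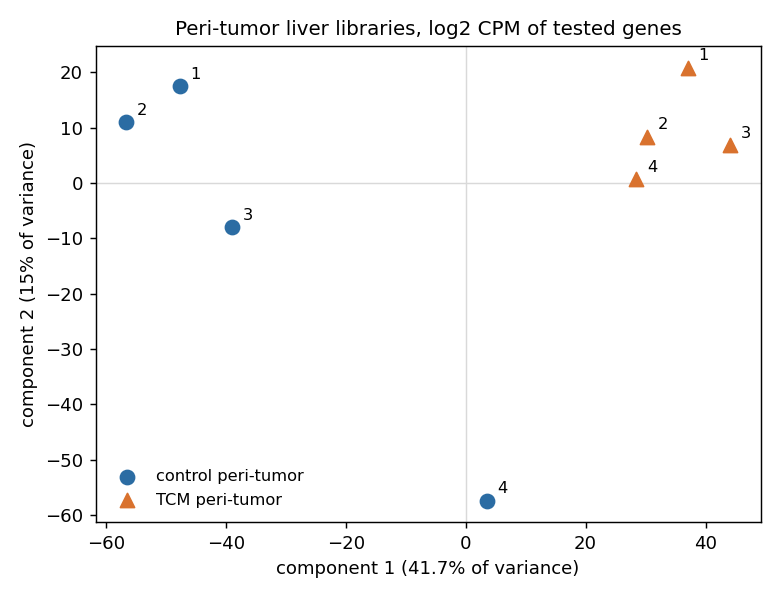
First and second principal components of the 8 peri-tumor libraries, from log2 CPM (read counts scaled to library size) of the tested genes; each point is 1 library. The TCM libraries lie at 28.46 to 44.11 on the first component, control mice 1 to 3 between -56.61 and -38.97, and control mouse 4 at 3.508.

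The transgene and the tissue label were looked at first. Hras was at 41.6, 34.5, 41.2 and 35.5 CPM (read counts scaled to library size with TMM factors) in control mice 1 to 4 and at 30.5, 28.1, 27.7 and 32.7 CPM in TCM mice 1 to 4. Reads of the transgene and of the mouse gene were not separated in the deposited table. The difference was not called (log2 fold change -0.36 ± 0.13 (SE), edgeR adjusted p = 0.0735), and it was called without both libraries of control mouse 4 (-0.40, adjusted p = 0.031) and by limma-voom with sample weights (-0.38, adjusted p = 0.0277). Alb, the albumin gene of hepatocytes, ran from 49889 to 73939.5 CPM in control and from 74292 to 117698 CPM in TCM libraries (adjusted p = 0.256). The tumor markers Afp and Gpc3 were low in both groups, with means of 4.93 ± 2.79 and 7.08 ± 7.71 CPM (SD, n = 4) for Afp in control and TCM and of 3.42 ± 1.97 and 1.99 ± 1.94 CPM for Gpc3. Mki67, a gene of dividing cells, was at 3.35 ± 0.655 and 3.63 ± 3.13 CPM. None of these 3 was called (adjusted p = 0.61, 0.528 and 0.909). Xist, transcribed in female cells, had 0 or 1 count in every library, and the Y-linked Ddx3y had 587 to 883 counts in control and 960 to 1211 in TCM libraries, so all 8 libraries had the pattern of male mice.

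The 63 gene lists used below group genes by function or cell type, and each is described by how many members were called. The plot of calls by list shows the span from the acute phase list, with 70.3% of its genes lower, to fatty acid oxidation, with 53.1% higher.

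**Figure D2:**
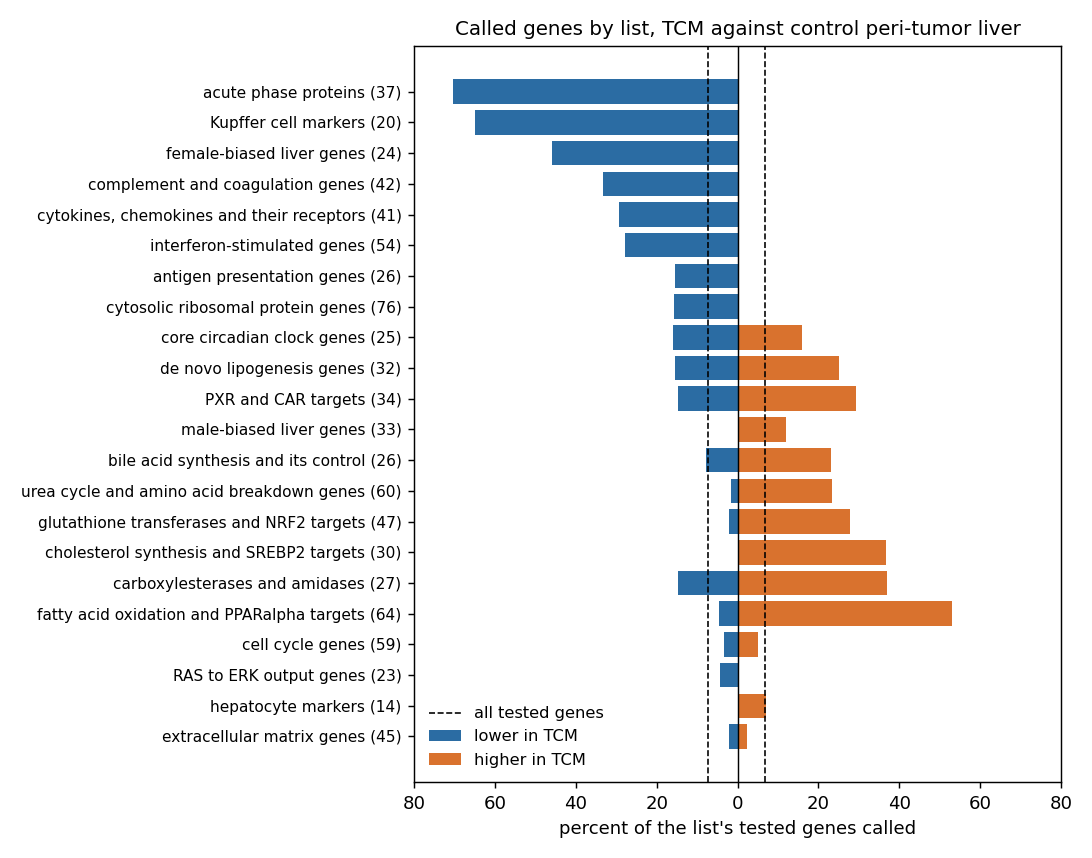
Percent of the tested genes of 22 lists called higher (right) or lower (left) in TCM than control peri-tumor liver, with the number tested in parentheses and dashed lines at the share over all tested genes (6.71% higher, 7.35% lower). Acute phase, Kupffer cell and female-biased genes extend farthest to the left, fatty acid oxidation genes farthest to the right.

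Acute phase transcripts were lower in TCM liver. Of 37 tested acute phase genes 26 fell and 0 rose, against 7.35% of all tested genes lower, and the list's median log2 fold change was -1.19. The largest falls were those of serum amyloid A, a lipid-binding plasma protein, of the siderophore-binding protein Lcn2, of the orosomucoids and of the metallothioneins, small zinc- and copper-binding proteins. The start regions of 4 of these genes are shown because the 2 genes of each pair lie near each other and moved together. They run from 250 bases before to 50 bases after a RefSeq start (build GRCm38.p6). Where a gene had several listed starts, only the entry with the lowest coordinate was used. A window therefore need not hold the main promoter of its gene. In Mt1 and Mt2, capitals mark the core of the metal response element (TGCACNC or TGCGCNC on either strand); in Saa1 and Saa2 they mark TTNCNNAA, a loose form of the C/EBP site. Mt1 (ENSMUSG00000031765) is at chr8:94178839-94179138 on the plus strand, Mt2 (ENSMUSG00000031762) at chr8:94172368-94172667 on the plus strand, Saa1 (ENSMUSG00000074115) at chr7:46742931-46743230 on the minus strand and Saa2 (ENSMUSG00000057465) at chr7:46751583-46751882 on the plus strand.
Mt1: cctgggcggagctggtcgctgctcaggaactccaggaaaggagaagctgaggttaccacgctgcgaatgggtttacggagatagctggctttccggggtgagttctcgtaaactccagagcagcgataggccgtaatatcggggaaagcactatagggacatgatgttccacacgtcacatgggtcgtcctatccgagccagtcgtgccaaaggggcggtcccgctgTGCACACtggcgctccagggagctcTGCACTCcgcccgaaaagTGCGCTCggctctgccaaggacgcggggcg
Mt2: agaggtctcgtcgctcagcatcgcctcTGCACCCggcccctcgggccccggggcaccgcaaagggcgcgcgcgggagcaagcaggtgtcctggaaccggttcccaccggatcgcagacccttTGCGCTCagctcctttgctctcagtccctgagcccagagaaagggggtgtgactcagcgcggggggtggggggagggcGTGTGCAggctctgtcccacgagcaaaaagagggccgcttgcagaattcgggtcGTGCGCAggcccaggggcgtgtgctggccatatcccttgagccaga
Saa1: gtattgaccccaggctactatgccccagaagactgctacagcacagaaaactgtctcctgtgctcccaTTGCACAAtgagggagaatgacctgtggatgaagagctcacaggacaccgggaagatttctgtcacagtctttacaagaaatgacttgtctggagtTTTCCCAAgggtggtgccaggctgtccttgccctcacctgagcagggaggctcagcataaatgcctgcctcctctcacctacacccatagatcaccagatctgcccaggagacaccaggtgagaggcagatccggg
Saa2: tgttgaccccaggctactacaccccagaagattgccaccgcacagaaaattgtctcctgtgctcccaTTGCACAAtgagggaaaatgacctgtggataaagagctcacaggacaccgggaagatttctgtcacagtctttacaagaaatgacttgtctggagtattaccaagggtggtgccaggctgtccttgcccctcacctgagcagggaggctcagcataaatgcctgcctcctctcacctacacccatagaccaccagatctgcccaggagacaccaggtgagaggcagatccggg
The Mt1 window held 3 matches to the metal response core and the Mt2 window 4, where 25.7% of 32851 mouse promoter windows held at least 1 and 0.517% at least 4. TTNCNNAA matched 2 times in Saa1 and 1 time in Saa2, and in 40.7% of all windows. GGACTTTCC, a form of the NF-kappaB site, matched in neither Saa window and in 0.344% of all. The Saa1 and Saa2 windows were identical in 287 of 301 aligned columns (95.3%), the Mt1 and Mt2 windows in 155 of 320 (48.4%). A match to such short letters describes the sequence and does not show that a factor binds there.

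Saa1 was at 313, 444, 373 and 5984 CPM in control mice 1 to 4 and at 16, 19.1, 8.09 and 18.8 CPM in TCM mice 1 to 4. Saa2 was at 119, 259, 137 and 6120.2 CPM in control and at 5.35, 7.15, 2.27 and 8.95 CPM in TCM mice. Every control value lay above every TCM value, and control mouse 4 was far above the other 3 control mice for both genes. The log2 fold changes were -6.84 ± 1.26 for Saa1 (edgeR adjusted p = 0.00348) and -8.12 ± 1.67 for Saa2 (adjusted p = 0.00633). Without control mouse 4 they were -4.60 and -4.85, still called (adjusted p = 0.00212 and 0.00634). The copies are alike in sequence: 32.1% of the 50-base words of the longest Saa1 transcript and 31.8% of those of Saa2 also occur in another gene, so counts may be split between them.

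The macrophage-expressed serum amyloid gene Saa3 was at 11.7, 11, 13.4 and 112 CPM in control and 0.831 to 3.71 CPM in TCM mice (log2 fold change -3.75 ± 0.91, edgeR adjusted p = 0.0148; -2.13 without control mouse 4). Lcn2 stood at 245, 214, 166 and 765 CPM in control against 5.62, 6.01, 13 and 5.37 CPM in TCM mice (-5.54 ± 0.62, adjusted p = 0.000189; -4.80 without control mouse 4). Orm2 was at 46.6 to 303 CPM in control and 8.19 to 11.4 CPM in TCM mice (-3.76 ± 0.83, adjusted p = 0.00932; -2.98 without control mouse 4). For these 3 genes control mouse 4 was the highest library and the groups did not overlap. Orm3 had its lowest control value in mouse 4, at 38.6, 43.7, 21.8 and 14.7 CPM in control and 3.57, 2.16, 0.831 and 1.47 CPM in TCM mice (-3.87 ± 0.45, adjusted p = 0.000189).

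The metallothioneins separated the groups without any large contribution of one control mouse. Mt1 was at 539.7, 494, 248 and 211 CPM in control and at 6.15, 16, 13.7 and 10.5 CPM in TCM mice. Mt2 ran from 77 to 180.3 CPM in control and was at 2.38, 2.97, 3.4 and 2.3 CPM in TCM mice. The lowest control library thus held more Mt1 and Mt2 than any TCM library. The log2 fold changes were -5.01 ± 0.47 (edgeR adjusted p = 8.15e-05) and -5.46 ± 0.57 (adjusted p = 0.000148). Exons of other genes cover 73.5% of the Mt2 exon bases, and no source used here gives the strand setting of the counting. Among the 10 tested metallothionein and zinc genes, 4 fell and 1 rose: the zinc exporter Slc30a1 went from 92.5 ± 15.6 to 53.2 ± 13.6 CPM (log2 fold change -0.80 ± 0.17), and the zinc importer Slc39a4 from 40.6 ± 7.71 to 79.3 ± 7.6 CPM (0.97 ± 0.20).

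Abundant plasma proteins fell less. Haptoglobin (Hp), which binds free haemoglobin, was at 5331, 3083, 3190 and 10227 CPM in control and at 1484, 1125, 1517 and 1508 CPM in TCM mice (log2 fold change -1.95 ± 0.33, edgeR adjusted p = 0.00226). Hemopexin (Hpx), which binds haem, went from 8357 ± 1855 to 3227 ± 165 CPM (-1.37 ± 0.19, adjusted p = 0.000591). The same direction was found for Lrg1 (-2.05 ± 0.37), serum amyloid P (Apcs, -2.05 ± 0.35), the hyaluronan-binding Itih3 (-1.61 ± 0.19) and Serpina10, an inhibitor of coagulation factor X (-1.18 ± 0.13), with no overlap between groups in any of the 4. Of the signal chain above them, the interleukin-6 receptor gene Il6ra was at 107 ± 26.7 CPM in control and 35.8 ± 14.9 CPM in TCM liver (-1.58 ± 0.37, adjusted p = 0.0118). The feedback inhibitor Socs3 was at 17.6 to 32.9 CPM in control and 2.23 to 11.8 CPM in TCM libraries, the highest of these in TCM mouse 4 (-2.29 ± 0.44, adjusted p = 0.00459; -3.07 without TCM mouse 4). Cebpd, a transcription factor of the acute phase, fell from 18.9 ± 1.64 to 8.22 ± 2.97 CPM (-1.20 ± 0.20). Stat3 was called (-0.47 ± 0.12, adjusted p = 0.0166), and the call was lost without TCM mouse 1 (-0.40, adjusted p = 0.0567). The list's count of falling genes stayed between 24 and 27 when any 1 of the 8 libraries was left out.

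**Figure D3:**
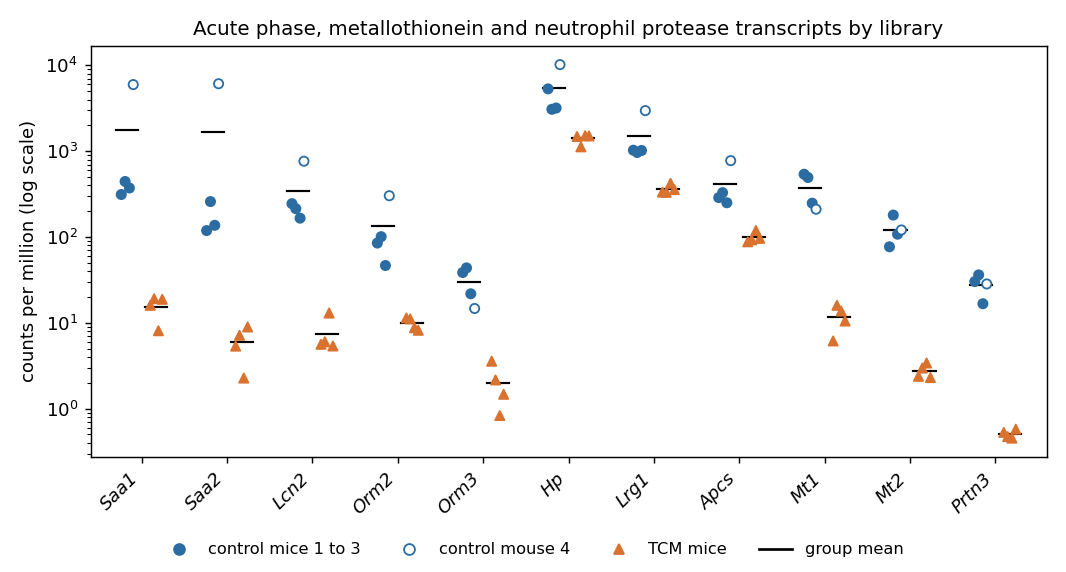
CPM (log axis) of 11 transcripts in each peri-tumor library: circles are control mice (open for control mouse 4), triangles TCM mice, bars group means. For each gene all control points lie above all TCM points; control mouse 4 is highest for Saa1, Saa2, Lcn2, Orm2, Hp, Lrg1 and Apcs and lowest for Mt1 and Orm3.

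Other inflammatory lists held genes that fell and none that rose, beside 7.35% of all tested genes lower. Of 42 tested complement and coagulation genes 14 fell (33.3%) and 0 rose (median -0.34; 10 to 16 fell with 1 library left out, and 1 rose without control mouse 4). C3, the central complement protein, went from 11726 ± 2159 to 5410.2 ± 353 CPM (log2 fold change -1.12 ± 0.16, edgeR adjusted p = 0.0008), and Pros1, a cofactor of anticoagulant protein C, fell by 0.84 ± 0.11. Of 54 interferon-stimulated genes 15 fell (27.8%) and 0 rose (median -0.51), with 8, 9 and 9 falling when TCM mouse 1, control mouse 2 or control mouse 3 was left out. Oas3, which makes the activator of RNase L, was at 7.96, 7.08, 8.78 and 4.26 CPM in control and 1.19, 0.742, 1.51 and 1.15 CPM in TCM mice (-2.61 ± 0.33, adjusted p = 0.000305). Zbp1, a sensor of Z-form nucleic acid, went from 19.8 ± 4.56 to 5.92 ± 1.24 CPM (-1.74 ± 0.26), and Ifi27l2a from 11.9 ± 3.8 to 2.89 ± 0.423 CPM (-2.03 ± 0.29). The groups did not overlap for any of these 3.

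Of 41 cytokine, chemokine and receptor genes 12 fell (29.3%) and 0 rose (median -0.68; 8 to 14 with 1 library left out). Cxcl1, a neutrophil attractant, was at 17.7, 25.5, 33.7 and 28.6 CPM in control and at 4.69, 10.5, 14.4 and 7.1 CPM in TCM mice (log2 fold change -1.53 ± 0.27, edgeR adjusted p = 0.0029). Csf1, the growth factor of macrophages, went from 23.6 ± 10.8 to 6.54 ± 1.62 CPM (-1.85 ± 0.34), and Cxcl14 from 18.8 ± 8.78 to 2.03 ± 0.78 CPM (-3.20 ± 0.60). Icam1, which binds leukocyte integrins, went from 28.4 ± 7 to 10.2 ± 1.45 CPM (-1.47 ± 0.23). Of 26 antigen presentation genes 4 fell (15.4%) and 0 rose (median -0.51), among them the immunoproteasome subunit Psmb10 (-1.06 ± 0.21). That count was 2 without TCM mouse 1, TCM mouse 3, control mouse 2 or control mouse 3, and 13 without control mouse 4, so no direction of the list is read from it. Kupffer cell markers, described next, moved in the same direction, and their part in these counts was not tested.

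Markers of Kupffer cells were lower in TCM liver. Of 20 tested markers 13 fell and 0 rose, against 7.35% of all genes lower (median -1.51; 10 to 15 with 1 library left out). Their summed level was 1422 to 2269.5 CPM in control, lowest in control mouse 4, and 979.9 to 1107 CPM in TCM libraries. Clec4f, a lectin specific to Kupffer cells, was at 256, 293, 271 and 136 CPM in control and at 75.5, 90.7, 77.5 and 91.7 CPM in TCM mice (log2 fold change -1.51 ± 0.34, edgeR adjusted p = 0.00984). The secreted macrophage protein Cd5l was at 362, 483, 453 and 187 CPM against 89.1 to 121 CPM (-1.83 ± 0.36, adjusted p = 0.0048). All 3 chains of complement C1q, made by macrophages, fell, with C1qb going from 110.4 ± 33 to 36.9 ± 4.51 CPM (-1.58 ± 0.24), C1qa by -1.60 ± 0.31 and C1qc by -1.73 ± 0.28. The haemoglobin scavenger receptor Cd163 (-1.76 ± 0.42), the surface lectin Clec1b (-1.55 ± 0.24) and Adgre1, the gene of F4/80 (-1.39 ± 0.33), fell as well. Timd4, a receptor for dying cells on long-lived Kupffer cells, did not overlap between groups (8.23 to 24.2 CPM against 6.01 to 7.27 CPM) and was called without control mouse 4 (-1.75, adjusted p = 0.0427) but not with all libraries (-1.50 ± 0.58, adjusted p = 0.092).

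Fewer markers of other cell types were called, beside 6.71% of all genes higher and 7.35% lower. The medians of 3 of these lists lay between -1.70 and -1.19, beside -1.51 for the Kupffer cell list. Of 20 markers of recruited macrophages and monocytes 3 fell (15%) and 0 rose (median -1.19; 1 fell without TCM mouse 1, TCM mouse 3 or control mouse 3, and 5 fell and 1 rose without control mouse 4). Of 18 tested of 27 T and NK cell markers 1 fell and 0 rose (3 fell without control mouse 4). The median was -1.21, and 17 had a negative log2 fold change, but only 1 had all TCM values below all control values. Of 8 tested of 18 neutrophil markers 2 fell, Lcn2 and Prtn3, in every fit that left out 1 library. The median was -1.70, and 6 of the 8 had all TCM values below all control values. Over all tested genes 18% did not overlap in either direction. Members can pass the count filter through 1 group alone, so nothing further is read from the medians and non-overlaps of these lists. Prtn3, the serine protease proteinase 3, was at 30.3, 36.2, 16.7 and 28.4 CPM in control and at 0.529, 0.472, 0.453 and 0.576 CPM in TCM mice (log2 fold change -5.75 ± 0.46, edgeR adjusted p = 1.91e-05). The defining neutrophil genes were near the floor of detection. Ly6g had 0 counts in all 8 libraries, which allows up to 0.1981 CPM before TMM factors at a floor of 3 counts. The granule protease Elane and the myeloperoxidase Mpo had 2 to 10 and 2 to 5 counts in control libraries, where Prtn3 had 262 to 599. S100a8 and S100a9, the calprotectin pair, had 30 to 60 and 38 to 83 counts in control and 7 to 19 and 7 to 21 counts in TCM libraries. The summed neutrophil markers, mostly Lcn2, ran from 195 to 806 CPM in control and 11.7 to 18.1 CPM in TCM libraries. The summed T and NK cell markers ran from 6.14 to 27 CPM in control and 6.42 to 8.66 CPM in TCM libraries, with control mouse 4 below every TCM library. Of 9 B and plasma cell markers 0 rose and 0 fell (median 0.33; 1 fell without control mouse 4), with summed levels of 196 to 383 and 169.9 to 270 CPM. Of 14 hepatocyte markers 1 rose and 0 fell (median -0.23), but 0 rose without TCM mouse 2, 3 or 4 or control mouse 1, 2 or 3, and 1 fell without TCM mouse 3 or control mouse 4. Of 19 stellate cell and fibroblast markers 1 rose and 0 fell (median 0.19; 2 rose without control mouse 4). Of 20 sinusoidal endothelial markers 0 rose and 1 fell (median -0.34); 4 fell without control mouse 1, 2 fell and 1 rose without control mouse 4, and 0 fell without TCM mouse 1, 3 or 4 or control mouse 2 or 3. Of 17 vascular endothelial markers 0 rose and 2 fell (median -0.15), with 1 falling without any 1 TCM mouse or control mouse 3 and 0 without control mouse 2.

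Genes of drug and toxin handling were among the largest rises. Of 34 tested PXR and CAR targets 10 rose (29.4%, against 6.71% of all genes) and 5 fell (14.7%, against 7.35%; median 0.56, and 0.43 with genes at 0 in a group set at their bound; 7 to 10 rose with 1 library left out, and 9 fell without control mouse 4). Cyp2b10, the standard CAR-induced cytochrome P450, was at 0.509, 0, 0.827 and 0.419 CPM in control and at 12.1, 9.51, 13.1 and 8.12 CPM in TCM mice (log2 fold change 4.59 ± 0.54, edgeR adjusted p = 0.000195). Cyp2c55 was at 1.59, 0.544, 1.46 and 3.77 CPM against 28, 18.2, 33.6 and 25.1 CPM (3.84 ± 0.59, adjusted p = 0.00128; 4.45 without control mouse 4). Cyp3a11, the abundant drug-oxidising enzyme, was at 1499, 984, 1512 and 890.3 CPM in control and at 6416, 4081, 6951 and 4255 CPM in TCM mice (2.15 ± 0.29, adjusted p = 0.000564). The groups were far apart for all 3. Members that fell included Por, the reductase that feeds electrons to all microsomal P450 enzymes, at 621, 685, 499 and 225 CPM in control and 111, 139.5, 121 and 215 CPM in TCM mice (-1.79 ± 0.30, adjusted p = 0.00182). Alas1, the first enzyme of haem synthesis, was at 768, 478, 443 and 161 CPM against 111, 178, 136 and 111 CPM, so the groups overlapped at control mouse 4 (-1.79 ± 0.36, adjusted p = 0.0059).

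Some conjugating and antioxidant enzymes rose, while most members of these lists were not called. Of 47 tested glutathione transferases and NRF2 targets 13 rose (27.7%, against 6.71% of all genes) and 1 fell (median 0.39; 9 to 13 rose with 1 library left out, and 3 fell without control mouse 4). Gstm3 was at 45.3, 35, 42 and 30.9 CPM in control and at 197, 159.9, 201 and 219 CPM in TCM mice (log2 fold change 2.34 ± 0.40, edgeR adjusted p = 0.00226), with 28.8% of its transcript words shared with other genes. Gclc, the rate-limiting enzyme of glutathione synthesis, was at 147, 162, 204 and 223 CPM against 592, 419.6, 616 and 458 CPM (1.5 ± 0.24, adjusted p = 0.00149). Me1, the cytosolic malic enzyme that makes NADPH, went from 80.4 ± 14.9 to 373 ± 74.9 CPM (2.21 ± 0.29), Gstm4 from 35 ± 7.25 to 104 ± 16.6 CPM (1.57 ± 0.19) and Gstm6 from 45.4 ± 8.02 to 114 ± 6.13 CPM (1.33 ± 0.15). The member that fell was Hmox1, haem oxygenase, at 50.6 ± 17.9 CPM in control and 15 ± 1.59 CPM in TCM liver (-1.75 ± 0.33, adjusted p = 0.00397). Of 27 carboxylesterases and related enzymes 10 rose (37%) and 4 fell (14.8%, against 7.35% of all genes; median 0.48; 7 to 12 rose with 1 library left out, and 2 fell without TCM mouse 1, 2 or 4 or control mouse 1, 2 or 3). Among them Ces2e went from 189.6 ± 72.9 to 509 ± 88.7 CPM (1.43 ± 0.23), Aadac, an arylacetamide deacetylase, from 259 ± 24.4 to 439.8 ± 34.1 CPM (0.76 ± 0.12), and aldehyde oxidase Aox1 from 22.3 ± 5.79 to 74.1 ± 5.77 CPM (1.73 ± 0.21). Of 31 UDP-glucuronosyltransferases and sulfotransferases 6 rose (19.4%) and 1 fell, the oestrogen sulfotransferase Sult1e1 (1.18 ± 0.545 to 0.133 ± 0.117 CPM). Its TCM mean lay below the floor of 3 counts (0.1853 to 0.1981 CPM). Without control mouse 4, 2 members of this list fell. Of 13 AHR targets 0 rose and 1 fell (7.69%, near the share of all genes); that call was lost without TCM mouse 1, control mouse 2 or control mouse 3, and 1 rose without TCM mouse 2 or control mouse 2.

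Among bile acid genes Cyp8b1 rose and Cyp7a1 fell. Cyp8b1, the sterol 12-alpha-hydroxylase that sets the share of cholic acid, was at 12.5, 18.3, 18.3 and 9.49 CPM in control and at 191, 154, 71.2 and 61.4 CPM in TCM mice (log2 fold change 3.03 ± 0.45, edgeR adjusted p = 0.00101). No control library came near a TCM library for this gene. Cyp7a1, the rate-limiting enzyme of the pathway, was at 112, 208, 82.1 and 13.4 CPM in control and at 22, 27.7, 20.7 and 22 CPM in TCM mice (-2.17 ± 0.59, adjusted p = 0.0257). Control mouse 4 lay below all TCM mice for Cyp7a1, and the call was lost without TCM mouse 1, 3 or 4 (adjusted p = 0.0664, 0.0694 and 0.0582) or control mouse 1 or 2 (0.0532 and 0.1). Of the 26 genes of the list 6 rose (23.1%, against 6.71% of all genes) and 2 fell (7.69%, near the 7.35% of all genes), with 3 rising without TCM mouse 1 or control mouse 2, 1 falling without TCM mouse 1, TCM mouse 3, control mouse 1 or control mouse 2, and 4 falling without control mouse 4. Of 32 transporters 4 rose (12.5%) and 0 fell (2 rose without TCM mouse 3, control mouse 2 or control mouse 3, and 7 without control mouse 4). Abcb4, the phospholipid exporter of bile, went from 133 ± 27.4 to 231 ± 21.5 CPM (0.80 ± 0.15), and the efflux pump Abcg2 from 52.7 ± 12.9 to 113 ± 15.3 CPM (1.10 ± 0.16). Abcb11, the bile salt export pump, was at 288, 239, 255 and 617 CPM in control and 519 to 613 CPM in TCM mice and was called without control mouse 4 (1.13, adjusted p = 0.000535; all libraries 0.70 ± 0.25, adjusted p = 0.0748).

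Genes of fatty acid oxidation rose together. Of 64 tested members of the fatty acid oxidation and PPARalpha list 34 rose and 3 fell, against 6.71% of all genes higher, with a median of 0.58 (25 to 36 rose with 1 library left out, and 1 fell without TCM mouse 3 or control mouse 2). Etfdh, which passes electrons from acyl-CoA dehydrogenases to ubiquinone, had a mean of 118 ± 10.2 CPM (SD, n = 4) in control and was at 254, 235, 240.2 and 201 CPM in TCM mice (log2 fold change 0.98 ± 0.11, edgeR adjusted p = 0.000186). Acadl, the long-chain acyl-CoA dehydrogenase, was at 122, 112, 127 and 116 CPM against 191, 193, 212 and 171 CPM (0.69 ± 0.10, adjusted p = 0.000796). Both genes separated the groups with little spread among the mice of either. The mitochondrial enzyme Decr1 (0.71 ± 0.11) and the peroxisomal Ehhadh (1.05 ± 0.24), Crot (1.53 ± 0.29) and Acaa1b (1.48 ± 0.23, with 35.5% of its words shared) rose too. Plin2, the coat protein of lipid droplets, went from 224 ± 91.7 to 642 ± 92.9 CPM (1.52 ± 0.25), and the pantetheinase Vnn1 from 27.9 ± 7.94 CPM to values of 81.3 to 121 CPM (1.96 ± 0.26). Cyp4a14, a target of PPARalpha, was at 4.53 to 23 CPM in control and 20 to 83.9 CPM in TCM libraries and was not called (1.51 ± 0.51, adjusted p = 0.0602), though it was without TCM mouse 4 (1.77, adjusted p = 0.0402).

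Cholesterol synthesis genes were among those that rose, and more of them did so without control mouse 4. Of 30 tested genes 11 rose (36.7%, against 6.71% of all genes) and 0 fell (median 0.49), with 7 rising without TCM mouse 4, control mouse 1 or control mouse 3 and 18 without control mouse 4. Hmgcs1, at the head of the pathway, was at 32.4, 43.8, 41.9 and 143 CPM in control and at 219, 176, 265 and 166 CPM in TCM mice (log2 fold change 1.66 ± 0.39, edgeR adjusted p = 0.0133; 2.39 without control mouse 4). Insig2, the sterol-sensing anchor of the SREBP precursors, was at 40, 48, 54.8 and 110.1 CPM against 477, 229, 373 and 177 CPM (2.31 ± 0.34, adjusted p = 0.00101). The sterol enzymes Tm7sf2 (0.79 ± 0.18) and Msmo1 (1.18 ± 0.28) did not overlap between groups.

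Among lipogenic genes Srebf1 fell and Elovl5 rose. Of 32 tested 8 rose (25%, against 6.71% of all genes) and 5 fell (15.6%, against 7.35%; median 0.19), and the number that fell was not stable. It was 3 without TCM mouse 1, 2 or 3 or control mouse 1 or 3, 2 without control mouse 2 and 8 without control mouse 4. Srebf1, the transcription factor of lipogenesis, was at 1261, 1385, 954 and 337 CPM in control and at 126, 177, 161 and 450.4 CPM in TCM mice (log2 fold change -2.11 ± 0.45, edgeR adjusted p = 0.00747). The groups overlapped for this gene, with TCM mouse 4 above control mouse 4. Elovl5, an elongase of polyunsaturated fatty acids, was at 173, 209, 162 and 289 CPM in control and at 972, 766, 1196 and 767 CPM in TCM mice (2.15 ± 0.21, adjusted p = 9.95e-05).

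Some sex-biased liver genes differed although all 8 mice had the transcripts of males. Members of the female-biased list can pass the count filter through the control libraries alone. Those near 0 in TCM libraries could then only be called lower. The counts and median that follow are therefore not read as a shift of the whole list. Of 24 tested of 30 female-biased genes 11 fell (45.8%, against 7.35% of all genes) and 0 rose (1 without TCM mouse 2 or 4; median -1.28, and -1.13 with genes at 0 in a group set at their bound; 7 to 13 fell with 1 library left out, 7 without control mouse 2). Cyp2c69 was at 219, 353, 64.2 and 20.9 CPM in control and at 5.35, 5.13, 3.32 and 1.41 CPM in TCM mice (log2 fold change -5.43 ± 0.71, edgeR adjusted p = 0.000461; -4.74 without control mouse 2). Cyp2c40 was at 98.8, 114, 68.6 and 46.5 CPM against 6.08, 7.09, 11.7 and 6.78 CPM (-3.38 ± 0.39, adjusted p = 0.000189). These P450 genes share 54.8% and 72.1% of their transcript words with other genes, so the split of counts among them is uncertain. Prlr, the prolactin receptor, was at 247, 373, 137 and 76.8 CPM in control and 57.8 to 71 CPM in TCM mice (-1.68 ± 0.34, adjusted p = 0.00576).

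In several of these genes the control mice themselves differed widely, with mouse 2 high and mouse 4 low. The flavin monooxygenase Fmo2 was at 114, 186, 27.7 and 3.91 CPM in control and 3.57 to 5.47 CPM in TCM mice, with overlap at control mouse 4 (log2 fold change -4.15 ± 0.82, edgeR adjusted p = 0.00511; -3.39 without control mouse 2). Cux2, a female-specific repressor of male genes, was at 65.9, 72.6, 3.56 and 0.0698 CPM against 0.151 to 0.661 CPM (-6.31 ± 1.41, adjusted p = 0.00984; -5.71 without control mouse 2; limma-voom with sample weights adjusted p = 0.239). The organic anion transporter gene Slc22a26 was at 13.4, 83.9, 2.74 and 0.419 CPM against 0 to 0.32 CPM (-7.15 ± 1.41, adjusted p = 0.00503; -4.98 without control mouse 2; limma-voom 0.127). The TCM values of Slc22a26 and the Cux2 value of control mouse 4 lay near or below the floor of 3 counts (0.1853 to 0.1981 CPM). The sizes of these 2 fold changes are therefore uncertain. The thioesterase Acot3 was at 13.4, 46.6, 4.83 and 1.46 CPM against 1.28 to 3.71 CPM (-2.90 ± 0.73), a call lost without control mouse 2 (-1.57, adjusted p = 0.0933) or TCM mouse 3 (-2.78, adjusted p = 0.0545).

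Some male-biased genes rose. Of 33 tested 4 rose (12.1%, against 6.71% of all genes) and 0 fell (median 0.80), with 12 rising without control mouse 4, 2 without TCM mouse 1, control mouse 1 or control mouse 3 and 1 without TCM mouse 3. Values of TCM mice lay wholly above those of control mice for 12 of the 33, against 18% of all genes not overlapping in either direction. The fatty acid hydroxylase Cyp4a12a was at 5.35, 0.726, 37.9 and 104 CPM in control and at 442, 382, 480.5 and 433 CPM in TCM mice (log2 fold change 3.56 ± 1.09, edgeR adjusted p = 0.0419). Its copy Cyp4a12b was at 5.99, 0.786, 20 and 35.2 CPM against 157, 112, 134 and 98 CPM (3.02 ± 0.82, adjusted p = 0.0249). The TCM mice were alike and the control mice were not, with control mouse 2 lowest and control mouse 4 highest. Cyp4a12a was called without control mouse 4 (4.89, adjusted p = 0.00987) but with no other library left out (adjusted p = 0.0632 to 0.099). Cyp4a12b was called at 3.81 without control mouse 4 and lost without TCM mouse 1, TCM mouse 3, control mouse 1 or control mouse 3 (adjusted p = 0.0516 to 0.0709). Of their transcript words 48.9% and 49.4% also occur in another gene, so counts may be split between them. Elovl3, an elongase of male liver, was at 0.955, 0.181, 3.5 and 54.8 CPM in control and 64.5 to 308 CPM in TCM mice (3.40 ± 1.36, adjusted p = 0.105; 6.66, adjusted p = 0.00626 without control mouse 4). The transporter Slco1a1 was at 179, 47.7, 526 and 529 CPM against 628 to 876 CPM and was not called (adjusted p = 0.388).

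**Figure D4:**
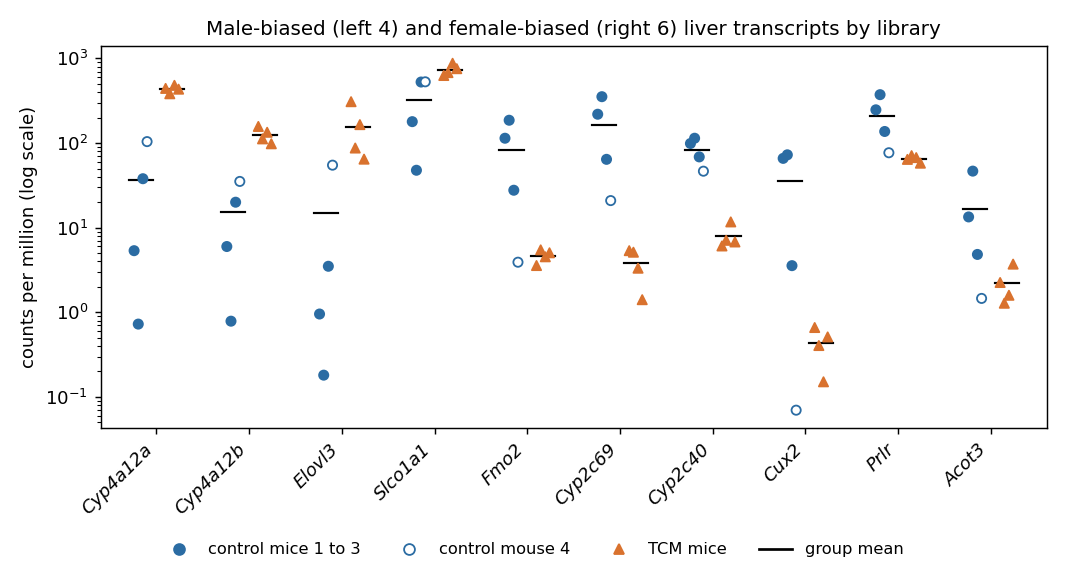
CPM (log axis) of 4 male-biased and 6 female-biased liver transcripts in each library: circles are control mice (open for control mouse 4), triangles TCM mice, bars group means. Control points spread widely for several genes, from 0.726 to 104 for Cyp4a12a and from 3.91 to 186 for Fmo2. The TCM points of both these genes lie close together, while those of Elovl3, Cux2 and Cyp2c69 are more spread.

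Single clock genes changed, and the counts over the list depended on single libraries. Of 25 tested 4 rose (16%, against 6.71% of all genes) and 4 fell (16%, against 7.35%). Rises numbered 1 without TCM mouse 1, control mouse 1 or control mouse 2 and 2 without TCM mouse 3 or control mouse 3, and falls 2 without TCM mouse 1, 2 or 3 or control mouse 1 or 2 and 8 without TCM mouse 4, so nothing is read about the list as a whole. Npas2, a partner of the clock activator BMAL1, was at 0.127, 0.242, 0.382 and 0.419 CPM in control and at 14.9, 2.29, 2.34 and 1.22 CPM in TCM mice (log2 fold change 4.13 ± 1.03, edgeR adjusted p = 0.0165; limma-voom 0.132). TCM mouse 1 stood far above the other 3, and without it the value was 2.71 and not called (adjusted p = 0.0696), nor was it without control mouse 1 or 2 (0.0504 and 0.0514). Per2, a repressor of the clock, was at 53.4, 71.7, 58.7 and 24.6 CPM against 4.1, 14.4, 14 and 17.1 CPM (-2.07 ± 0.45, adjusted p = 0.00824). Noct, a rhythmic phosphatase gene, went from 34.6 ± 5.76 to 9.81 ± 4.55 CPM (-1.81 ± 0.32), with 34.5% of its words shared. Dbp, an output gene of the clock, ranged from 12.6 to 162 CPM among TCM mice alone, lowest in TCM mouse 1 (-0.30 ± 0.62, adjusted p = 0.789). Nr1d1, the clock repressor REV-ERB-alpha, was at 40.7, 26.7, 36.7 and 151 CPM in control and 121 to 197 CPM in TCM mice, called without control mouse 4 (2.23, adjusted p = 0.000684) but not with all libraries (1.35 ± 0.47, adjusted p = 0.0643). Fkbp5, a glucocorticoid-induced chaperone gene, was at 134, 152, 129 and 61.5 CPM against 15.5, 25.6, 21.1 and 27.9 CPM (-2.40 ± 0.28, adjusted p = 0.000189). The hour of collection was not given, so its part in these differences was not tested.

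Egr1, an immediate early transcription factor, was at 3.38, 5.08, 4.2 and 27.5 CPM in control and at 215, 89.5, 163 and 94.8 CPM in TCM mice (log2 fold change 3.82 ± 0.59, edgeR adjusted p = 0.00128; 5.05 without control mouse 4). Of 22 immediate early genes 4 rose (18.2%, against 6.71% of all genes) and 2 fell (9.09%, against 7.35%). Rises numbered 2 without TCM mouse 3, TCM mouse 4 or control mouse 1, 1 without control mouse 2 or 3 and 7 without control mouse 4, and falls 0 without TCM mouse 3, 1 without control mouse 2 and 4 without control mouse 4. Of 23 genes that report ERK signalling 0 rose and 1 fell, with 3 rising and 2 falling without control mouse 4 and 2 falling without TCM mouse 2 or 4. Of 27 Ras genes and direct regulators 6 rose (22.2%) and 1 fell (2 fell without TCM mouse 2 or control mouse 4), all by small amounts among the rises. The exchange factor gene Sos1 went from 45.1 ± 3.79 to 64.3 ± 4.54 CPM (0.51 ± 0.09, adjusted p = 0.00286) and the scaffold gene Shoc2 from 28.2 ± 0.578 to 40.5 ± 2.98 CPM (0.52 ± 0.09).

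Further large changes fell outside these groups. Krt23, a keratin gene, was at 0.0637, 0.786, 0.382 and 1.12 CPM in control and at 5.29, 6.68, 5.97 and 7.61 CPM in TCM mice (log2 fold change 3.44 ± 0.42, edgeR adjusted p = 0.000239). Olig1, a transcription factor known from oligodendrocytes, was at 0.726 to 2.3 CPM against 7.56 to 12.2 CPM (2.57 ± 0.35), and Smad9, a transducer of BMP signals, at 2.29 to 6.07 CPM against 16.7 to 19.7 CPM (2.32 ± 0.52). Each of these 3 separated the groups with little spread among TCM mice. The mitochondrial carrier gene Slc25a30 was at 13.4 to 32.7 CPM in control and 286, 59.5, 92.5 and 49.8 CPM in TCM mice (2.51 ± 0.51; 1.66 without TCM mouse 1). Srgap3 rose by 2.31 ± 0.47 (2.91 without control mouse 2) and Depp1 by 2.29 ± 0.42 (2.90 without control mouse 4). Among falls, Armcx4 was at 12, 36.9, 11.8 and 17.6 CPM against 0.859 to 1.73 CPM (-3.84 ± 0.41, adjusted p = 0.000148), and the acyltransferase gene Acnat2 at 22.3 to 155 CPM against 6.35 to 9.45 CPM (-3.41 ± 0.54), with 31.5% of its words shared. The nicotinamide methyltransferase Nnmt went from 159 ± 32.8 to 40 ± 9.57 CPM (-2.0 ± 0.48).

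Eif3j2, a translation initiation factor gene, had 22.8 to 32.4 CPM in control and 0 counts in all 4 TCM libraries, a control mean at least 578-fold higher (edgeR adjusted p = 0.0327). Of its transcript words 91.8% also occur in another gene, so its level is uncertain. The call was lost without any 1 library other than control mouse 4 (adjusted p = 0.0576 to 0.0705) and by limma-voom (0.161).

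In the remaining lists the called members are given beside the 6.71% of all genes higher and 7.35% lower. Among 60 genes that break down amino acids or run the urea cycle, 14 rose (23.3%) and 1 fell (median 0.17; 6 to 8 rose without TCM mouse 1, 2 or 3 or any of control mice 1 to 3, and 2 fell without control mouse 4), with the glycine cleavage enzyme Gldc going from 130.1 ± 19.7 to 257 ± 36 CPM (log2 fold change 0.98 ± 0.13) and the propionyl-CoA carboxylase subunit Pcca from 57.2 ± 7.01 to 94.7 ± 9.3 CPM (0.73 ± 0.13). Of 76 cytosolic ribosomal protein genes 12 fell (15.8%) and 0 rose (median -0.29); 3 to 7 fell without TCM mouse 1, TCM mouse 3 or any of control mice 1 to 3, and 28 without control mouse 4. Of 76 nuclear-encoded respiratory chain genes 8 rose (10.5%) and 3 fell (3.95%; 4 or 5 rose without TCM mouse 1, TCM mouse 3 or control mouse 2, 3 or 4), and of 13 mitochondrial genome transcripts 1 rose (7.69%, median 0.48; 0 without TCM mouse 3 or control mouse 2). Of 24 cytosolic heat shock genes 4 fell (16.7%), among them Hspb8 (-0.64 ± 0.11), and 1 to 8 fell when 1 library was left out, 1 without TCM mouse 1, control mouse 1 or control mouse 3, 2 without TCM mouse 2, TCM mouse 4 or control mouse 2, 7 without TCM mouse 3 and 8 without control mouse 4. Of 24 iron handling genes 2 rose (8.33%) and 6 fell (25%; 4 rose without control mouse 4). Of 59 cell cycle genes 3 rose (5.08%) and 2 fell (3.39%), no more than the shares of all genes. Rises were 1 without TCM mouse 3, TCM mouse 4 or control mouse 2 and 6 without control mouse 4, and falls 1 without TCM mouse 2 or control mouse 1. Of 40 oncofetal and tumor markers 2 rose (5%) and 4 fell (10%; 7 fell without control mouse 4, and 2 without any other single library).

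The other lists are given by their counts of genes called higher and lower alone. Each count is followed by its range over the fits that left out 1 library. Nothing is read from them beside the 6.71% and 7.35% over all genes. They were 2 (1 to 4) and 7 (6 to 10) of 37 hepatocyte transcription factors. They were 4 (3 in each) and 2 (1 to 2) of 35 pericentral and 2 (1 to 7) and 2 (2 to 4) of 31 periportal genes. They were 2 (1 to 6) and 5 (4 to 6) of 28 Cyp2a, Cyp2c, Cyp2d and Cyp2j genes. They were 3 (0 to 3) and 1 of 32 apolipoprotein, 1 (0 to 3) and 2 (1 to 5) of 34 glycolysis and 3 (0 to 7) and 4 (2 to 6) of 33 gluconeogenesis, glycogen and insulin response genes. For growth and stress they were 0 (0 to 3) and 3 (2 to 5) of 22 IGF and growth hormone axis and 1 (1 to 2) and 3 (2 to 5) of 27 methionine cycle genes. Counts were 2 (1 to 3) and 3 (1 to 3) of 19 tryptophan to NAD and 1 (1 to 3) and 2 (1 to 2) of 30 serine synthesis and integrated stress genes. Counts were 0 and 1 (0 to 3) of 29 unfolded protein response and 0 (0 to 3) and 2 (0 to 4) of 19 hypoxia genes. For matrix and signalling they were 1 (0 to 4) and 1 (0 to 1) of 45 extracellular matrix genes and 1 (0 to 2) and 2 (1 to 5) of 23 YAP targets. Counts were 3 (1 to 3) and 0 (0 to 1) of 29 p53 targets, 1 (1 to 2) and 0 of 18 Notch and progenitor and 0 and 3 (1 to 5) of 22 Wnt genes. Counts were 2 (2 to 3) and 0 (0 to 1) of 15 coenzyme Q, 2 (1 to 2) and 1 (1 to 2) of 16 EGF family and 1 (0 to 1) and 0 (0 to 1) of 9 carbonic anhydrase genes. For cell types they were 1 (1 to 2) and 0 of 11 cholangiocyte, 1 (0 to 1) and 2 (0 to 2) of 9 erythroid and 1 (1 to 2) and 0 of 2 tested markers of pancreas, gut, fat and muscle. Where leaving out 1 library raised a count by over 1.5 times, it was in most cases control mouse 4. The exceptions were higher methionine cycle genes (control mouse 2), lower unfolded protein response genes (control mouse 2 and control mouse 4), lower Wnt genes (TCM mouse 4) and lower EGF family and carbonic anhydrase genes (TCM mouse 2). Counts dropped by that much without single libraries of the other 7 mice, and without control mouse 4 for the lower serine and stress genes.

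The effect of TCM in peri-tumor liver was then set against its effect in the tumors of the same mice, by the difference between the 2 log2 fold changes in the same model. This difference was called for 165 of 14865 genes (1.11%), 60 of them with the larger value in peri-tumor liver and the others with the larger value in tumors, and 115 of the 165 were also called in peri-tumor liver. With each mouse as a block 107 were called, 75 of them shared with the 165. Without control mouse 4's peri-tumor library 665 were called, without TCM mouse 1, 2 or 3 these were 69, 107 or 77, and without control mouse 1, 2 or 3 they were 84, 79 or 93. Names that are numbers of predicted genes or pseudogenes made up 52 of the 165, and reads of such copies can be shared with their parent genes. Both comparisons use mice of the same groups, so they are not independent.

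Prtn3 fell by 5.75 in peri-tumor liver and had a log2 fold change of -0.46 ± 0.35 in tumors (difference -5.29, edgeR adjusted p = 0.000354). Mt1 (-5.01 against -0.77, adjusted p = 0.00232), Mt2 (-5.46 against -0.97, adjusted p = 0.00544) and Lcn2 (-5.54 against -1.11, adjusted p = 0.01) likewise fell in peri-tumor liver while the tumor values were not called (adjusted p = 0.246, 0.202 and 0.196). These 4 differences were called in every fit that left out 1 peri-tumor library and with the mouse as a block. Aox1 rose in peri-tumor liver and stood at -0.01 in tumors (difference 1.74, adjusted p = 0.00867). Some genes moved in opposite directions and were called in both tissues: Cox7c, a subunit of cytochrome c oxidase (-0.95 and 1.73, difference -2.68, adjusted p = 0.000149), Rrm2, a subunit of ribonucleotide reductase (-0.88 and 0.90, difference -1.79, adjusted p = 0.00499), the ribosomal protein gene Rpl11 (-0.97 and 1.07, difference -2.04, adjusted p = 0.0024), the EGF family ligand Btc (1.23 and -1.04, difference 2.27, adjusted p = 0.00807) and Zbed5 (0.90 and -0.73, difference 1.62, adjusted p = 0.000454). Of the transcript words of Cox7c and Rpl11, 27.9% and 38.2% occur in other genes. The proline transfer RNA gene mt-Tp of the mitochondrial genome also differed (-0.50 and 1.82, difference -2.32, adjusted p = 0.000149), though its peri-tumor call was lost without any 1 of the 8 libraries.

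The difference for Egr1 (3.82 against 0.04, difference 3.78, edgeR adjusted p = 0.0304) was called without control mouse 4 (5.02) and lost without TCM mouse 1, TCM mouse 3 or control mouse 1, 2 or 3 (adjusted p = 0.0539 to 0.07). That for Cyp2c69 (-5.43 against -0.96, difference -4.48, adjusted p = 0.0404) was lost with the mouse as a block (0.0621), by limma-voom (0.1), with no filter on low counts (0.0545) and without control mouse 1, control mouse 2 or any 1 TCM mouse (0.06 to 0.0866; difference -3.82 without control mouse 2). Several of the largest peri-tumor changes had tumor values in the same direction, with no called difference. They were Cyp8b1 (3.03 and 3.16, edgeR adjusted p of the difference 0.941), Cyp3a11 (2.15 and 2.43, 0.765), Oas3 (-2.61 and -2.56, 0.97) and Olig1 (2.57 and 3.30, 0.639). Elovl5 was smaller in tumors (2.15 and 1.31, 0.142), also without a called difference. A difference that was not called does not show equal effects. The difference for Saa1 (-6.84 and -0.86, adjusted p = 0.0641) and Saa2 (-8.12 and -0.80, adjusted p = 0.0712) was not called.

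**Figure D5:**
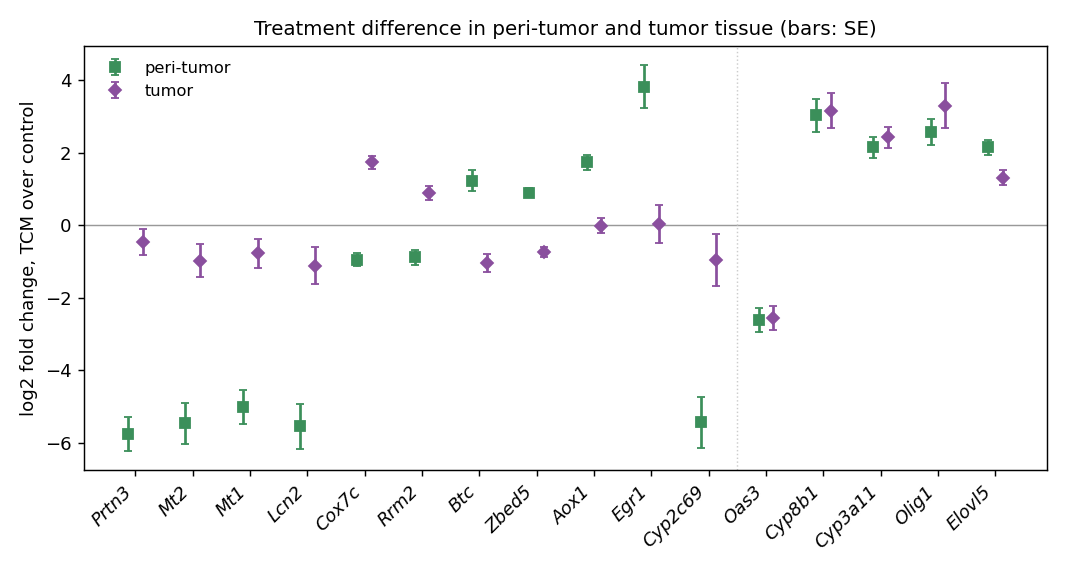
Log2 fold changes (TCM over control) with standard errors of 16 genes in peri-tumor liver and in tumors, 4 mice a group; the horizontal line marks 0, and the dotted line parts genes with a called difference between tissues (left) from genes without one. Prtn3, Mt2, Mt1 and Lcn2 lie at -5.75 to -5.01 in peri-tumor liver and at -1.11 to -0.46 in tumors, Cox7c and Rrm2 lie on opposite sides of 0, and Oas3, Cyp8b1 and Cyp3a11 have like values in both tissues.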

How the data were processed

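Total RNA was isolated with a mirVana kit and libraries were made with a stranded mRNA kit, per the labels' protocols. The authors deposited raw read counts per gene and FPKM values (fragments scaled to exon length and library size) for 54838 genes. The genome builds mm9 and mm10 stand in the submitters' processing notes, and no source used here gives the aligner, counter or strand setting. Deposited counts and FPKM held the same zeros, and the gene length they imply differed by at most 0.0957% between libraries over 14902 genes, so FPKM was used only for this check. Rows without a gene symbol numbered 115 and took at most 0.01709% of a library's counts.

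Counts of all 16 libraries were fitted with edgeR 4.0.16 in R 4.3.3 (filterByExpr with a count minimum of 10, TMM factors, 1 mean per group, quasi-likelihood F test), and adjusted p-values come from Benjamini-Hochberg adjustment over all tested genes, with 0.05 as the threshold. Every adjusted p in the text is from this fit unless another fit is named with it. Those fits were limma 3.58.1 (voom), DESeq2 1.42.0 and edgeR with libraries left out, a block or another filter. Log2 fold changes are TCM minus control, and standard errors are the fold change over the square root of F. CPM are counts scaled to library size with TMM factors. Alternatives were RLE factors, DESeq2, limma-voom with sample weights, other filters, the 8 libraries alone, replicate and mouse blocks, each library left out, and, chosen after the data were seen, both libraries of control mouse 4 left out. The scripts were tested on simulated data. Within each group no library was a copy of another. The lowest chi-square per degree of freedom was 21.19 among peri-tumor pairs (TCM) and 16.87 among tumor pairs (control). Pairs from different groups were not compared.

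Named genes were the 15 called genes that rose most and the 15 that fell most, where the higher group averaged 5 CPM or more, the 4 TCM and 4 control values were separate and the name was not a number, up to 4 members of each list with the lowest p and at least 1 CPM, Hras, and the 10 lowest p among called tissue differences; numbered names among these were left out, and some genes that met the rule are not reported here. Named after their values were seen were Abcb11, Acaa1b, Acot3, Adgre1, Afp, Alas1, Alb, Apcs, Cd163, Cd5l, Clec4f, Crot, Cux2, Cyp4a14, Cyp7a1, Dbp, Ehhadh, Elovl3, Fkbp5, Gpc3, Hmgcs1, Hmox1, Hp, Il6ra, Itih3, Lrg1, Mki67, Nr1d1, Slco1a1, Socs3, Stat3, Sult1e1, Timd4, the neutrophil genes with counts, and tissue differences beyond the 10. The comparison and all lists were chosen with earlier results of these data known. Peri-tumor and tumor libraries with the same animal code come from 1 mouse, which pairs them for the mouse block; their deviations from the group means correlated at 0.0433 to 0.235, and 7 of the 8 peri-tumor libraries were closest to the tumor of their own mouse. Promoters were read from RefSeq on GRCm38.p6. Shared sequence was counted as 50-base words of the longest GENCODE transcript of each gene, and exon overlap was taken from the GENCODE annotation.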

Additional observations from a re-analysis of the deposited data

Results flagged for a closer look

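Over the 121 genes named, 242 groups of 4 libraries were checked. In 29 of them the highest or lowest library lay apart by a gap that took up most of the group's range. Chance would flag about 1 group in 20 if genes were picked without regard to their values and were independent. Many of these genes were named after their values were seen, and all were measured in the same libraries. The 29 flags are therefore not read against that rate, and they only describe the named genes. Control mouse 4 was the library lying apart in 15 of the 29 cases. It was highest, with the gap as a share of the range, for Saa1 (0.977), Saa2 (0.977), Saa3 (0.976), Lrg1 (0.97), Elovl3 (0.939), Egr1 (0.93), Hmgcs1 (0.897), Nr1d1 (0.887), Abcb11 (0.87), Lcn2 (0.868) and Apcs (0.852). It was lowest for Acaa1b (0.975), C1qa (0.95), C1qc (0.865) and Eif3j2 (0.844). Control mouse 2 was highest for Slc22a26 (0.845) and lowest for Alb (0.912), and control mouse 3 was highest for Gpc3 (0.911) and Mki67 (0.864).

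Among the TCM mice, mouse 1 was highest for Npas2 (0.918), and mouse 2 was lowest for Hp (0.916). Mouse 3 was highest for Afp (0.899), Lcn2 (0.916) and Hmox1 (0.853) and lowest for Icam1 (0.9) and S100a9 (0.89). Mouse 4 was highest for Slc30a1 (0.957), Noct (0.932) and Srebf1 (0.843).

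The effect of TCM differed between peri-tumor liver and tumors, by the test of that difference, for 20 of the genes named. The log2 differences, peri-tumor minus tumor, were -5.29 for Prtn3, -4.49 for Mt2, -4.48 for Cyp2c69, -4.43 for Lcn2, -4.24 for Mt1, -2.68 for Cox7c and Armcx4, -2.32 for mt-Tp, -2.04 for Rpl11, -1.79 for Rrm2 and -0.90 for Serpina10. They were 3.78 for Egr1, 2.27 for Btc, 1.74 for Aox1, 1.65 for Gclc, 1.64 for Vnn1, 1.62 for Zbed5, 1.5 for Ces2e, 1.31 for Slc39a4 and 0.65 for Acadl. With the mouse as a block the differences for Acadl, Ces2e, Cyp2c69, Gclc, Serpina10, Slc39a4 and Vnn1 were not called (adjusted p = 0.0629, 0.0725, 0.0621, 0.0516, 0.0621, 0.0819 and 0.0836 by edgeR), and each of these was also lost without control mouse 2 or TCM mouse 1. That for Armcx4 was lost without TCM mouse 1 or 3 (adjusted p = 0.0695 and 0.0613).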

How the results depend on the processing

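The count of 2091 called genes was 2126 with a filter of 1 CPM in 4 libraries, 2109 with RLE factors, 2811 with DESeq2, 3349 with limma-voom, 1441 without a filter and 1405 from the 8 libraries alone, and all calls shared with the 2091 had the same direction. It ranged from 1101 to 3228 with 1 library left out and was 3434 without both libraries of control mouse 4. The 165 tissue differences became 806 with DESeq2, 603 with limma-voom, 79 without a filter and 107 with the mouse as a replicate block, and 69 to 665 with 1 peri-tumor library left out. Replicate numbers pair different mice across treatments: same-numbered libraries correlated at 0.00663 to 0.111 in their deviations, and 3 of 4 TCM libraries were closest to the control library of their number, a hint from the data and not the design. With the replicate number as a block 2046 genes were called in peri-tumor liver, 1811 of them shared. The sign of the log2 fold change reversed for Afp with limma-voom (-0.171) and without TCM mouse 3 (-0.599 to 0.848 with 1 library left out), for Mki67 with limma-voom (-0.565), under the replicate block (-0.057) and without TCM mouse 3 (-0.66 to 0.377), and for Dbp without TCM mouse 1 (-0.839 to 0.057); none of the 3 was called with all libraries. The cause was not tested. Levels below a floor of 3 counts, 0.1853 to 0.1981 CPM in these libraries, were not reliably measured. Single values printed below that floor rest on few reads.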
